A study of Mus musculus with 2 samples.

Results

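The Notch signalling genes of the lung endothelium were followed in 4 classes of sorted cells: the receptors Notch1, Notch2 and Notch4, the ligands Dll1, Dll4, Jag1 and Jag2, and the target genes Hey1, Heyl and Hes1. These 10 genes were chosen by name, for their role in the pathway, from the 31053 genes in the deposited matrices. No measured value was a criterion, but earlier results of these data were known when they were chosen. Their unique molecular identifiers (UMIs, tags that each mark 1 captured RNA molecule) were added up within each class and set against all UMIs of that class, and levels are given as counts per 1000000 UMIs (CPM). Across the classes Dll4 and Hey1 had their lowest levels in vein cells, and Dll1 its highest. Between the libraries the differences were small: in general capillary cells Dll1 was 1.23-fold and Dll4 1.17-fold higher in the metastatic library, and in vein cells Dll1 was lower in the metastatic library, at a log2 ratio of -0.65.

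The study asked how lung endothelial cells respond while melanoma cells lodge in the lung. Wild-type (WT) C57BL/6 mice received PBS (the control library) or 200000 cells per mouse of B16-F10, a mouse melanoma line (the metastatic library), through the tail vein, and 6 h later lung cells positive for PECAM1, an endothelial surface protein, were sorted. Each library was made from 2 mice, and each group held 1 library, so the difference between the groups has no replicate check: nothing was tested, no p-value is given, and the condition, the mice and the library cannot be told apart. The 10x Genomics 3′ chemistry reads the end of each transcript, so that levels are compared here for 1 gene between cells and never between genes.

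A barcode was taken as a cell where it had 1000 to 5000 detected genes and its mitochondrial UMIs were under 20%, 7134 in the control and 6466 in the metastatic library, with medians of 6272.5 and 6526.5 UMIs. Of these, 16 barcodes occurred in both libraries. A class needed 2 detected markers: Ednrb, Fibin and Tbx2 for aerocytes, the thin capillary cells of gas exchange; Slc6a2, Car8 and Bst1 for vein; Gja5, Bmx and Fbln5 for artery; and Gpihbp1, Aplnr, Kit and Lpl, with no other class, for general capillary cells. This gave 5020 general capillary cells, 1364 aerocytes, 63 artery and 247 vein cells in the control library, and 4519, 1086, 59 and 304 in the metastatic library. Summed endothelial markers (Cdh5, Pecam1, Cldn5, Tie1, Kdr and Egfl7) stood between 4922 and 9522 CPM in the 4 classes of both libraries, with all 6 detected in each. The small artery class was mixed: markers of lymphatic endothelium summed to 720 UMIs in its metastatic cells and to 1 UMI in its control cells, and mural and fibroblast markers to 22 and 379 UMIs. In the vein class epithelial markers summed to 3648 CPM in metastatic and 124 CPM in control cells, and myeloid markers to 615 and 32.2 CPM. The intervals below are 95% intervals, exact Poisson for a level, exact conditional binomial for a ratio and exact Clopper-Pearson for a share of cells. They hold counting error alone and leave out how much mice vary.

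Notch receptors are cleaved when a ligand on a neighbouring cell pulls on them, and the freed intracellular part enters the nucleus and switches on genes with the DNA-binding protein RBPJ. In blood vessels DLL4 acting on NOTCH1 is known for restraining sprouting and for arterial fate, while veins keep Notch signalling low. HEY1, HEYL and HES1 are transcriptional repressors whose genes are direct targets of the pathway.

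On GRCm38, GENCODE M21 places the receptors at chr2:26457903-26516663 (Notch1, minus strand), chr3:98013527-98150361 (Notch2, plus) and chr17:34564268-34588503 (Notch4, plus). The ligands lie at chr17:15367354-15376872 (Dll1, minus), chr2:119325784-119335962 (Dll4, plus), chr2:137081456-137116644 (Jag1, minus) and chr12:112907819-112929776 (Jag2, minus). The targets lie at chr3:8663359-8667256 (Hey1, minus), chr4:123233556-123249875 (Heyl, plus) and chr16:30064384-30067796 (Hes1, plus). RefSeq promoter windows (GRCm38.p6, 250 bases before to 50 after a start) were matched for 7 of the 10 members, 8 windows in all, and Hey1, Heyl and Hes1 were not matched. The letters TGGGAA, the core of the RBPJ site, occurred on either strand in 25.6% of all 32851 windows and in 0 of the 8. The letters CACGCG on either strand, a sequence bound by HES and HEY repressors, occurred in 9.27% of all windows and in 5 of the 8. The letters CACGTG were searched for as well, and occurred in 7.15% of all windows and in 0 of the 8. No match of one motif overlapped a match of another, and a match is a string of letters, not a shown binding site. The sequences upstream of the start in both annotations are shown for the 3 ligands that have any, because Dll1 and Dll4 carry the differences described below and Jag1 the opposite sign in general capillary cells. They run 5′ to 3′ in the direction of the gene, with CACGCG or its complement CGCGTG in capitals, for Dll1 chr17:15376933-15377182 (minus), Dll4 chr2:119325534-119325783 (plus) and Jag1 chr2:137116645-137116770 (minus).
Dll1: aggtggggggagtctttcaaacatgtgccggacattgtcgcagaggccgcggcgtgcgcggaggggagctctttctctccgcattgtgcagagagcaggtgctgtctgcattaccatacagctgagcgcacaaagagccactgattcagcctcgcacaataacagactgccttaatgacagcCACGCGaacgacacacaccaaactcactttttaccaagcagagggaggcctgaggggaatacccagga
Dll4: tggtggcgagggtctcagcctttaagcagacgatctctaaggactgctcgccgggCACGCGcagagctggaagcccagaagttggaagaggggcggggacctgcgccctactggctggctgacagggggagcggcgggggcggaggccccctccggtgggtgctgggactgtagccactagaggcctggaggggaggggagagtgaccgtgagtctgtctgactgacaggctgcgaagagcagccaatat
Jag1: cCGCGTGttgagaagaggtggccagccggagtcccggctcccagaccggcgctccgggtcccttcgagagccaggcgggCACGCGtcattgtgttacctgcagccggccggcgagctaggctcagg
Dll1 and Dll4 held 1 such motif each and Jag1 2.

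Among the ligands, Dll4, the tip-cell and arterial ligand of NOTCH1, stood highest in artery cells, at 203 CPM (165–247) in control and 156 CPM (123–196) in metastatic cells. General capillary cells had 81.8 CPM (78.7–85.0) and 95.7 CPM (92.2–99.2), and aerocytes 89.6 CPM (84.2–95.3) and 98.8 CPM (92.5–105). Vein cells had 11.8 CPM (7.70–17.3) and 12.7 CPM (8.80–17.8), from 26 and 34 UMIs. The order was thus artery, then aerocyte and general capillary, then vein, in both libraries. The aerocyte and general capillary intervals overlapped in both, although the interval of their log2 ratio was 0.03 to 0.24 in the control library. Vein cells were 6.94-fold below general capillary cells in the control library and 7.53-fold below in the metastatic library, as measured. Lymphoid cells had 0 Dll4 UMIs in the control library, with an upper bound of 15.9 CPM, and 2 UMIs in the metastatic library, so the vein level was not above background and these folds rest on it.

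Dll1, a ligand of the same Delta family, had another order. In the control library it stood at 89.8 CPM (77.7–103) in vein cells, 37.3 CPM (35.2–39.4) in general capillary cells, 18.3 CPM (8.35–34.7) in artery cells and 13.4 CPM (11.4–15.7) in aerocytes. In the metastatic library the same classes had 57.2 (48.5–67.0), 45.8 (43.4–48.3), 12.3 (4.53–26.9) and 17.5 (14.9–20.4) CPM. Vein was highest and general capillary cells came next in both, while the artery values, from 9 and 6 UMIs, could not be ordered against aerocytes. The gap between vein and general capillary cells was a log2 ratio of 1.27 (1.04–1.49) in the control and 0.32 (0.07–0.56) in the metastatic library.

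Jag1, a Jagged ligand, was lowest in aerocytes, at 17.4 CPM in control and 15.9 CPM in metastatic cells. In the other classes it stood between 35.0 and 40.6 CPM in the control library and between 30.3 and 41.1 CPM in the metastatic library, with intervals that overlapped. Jag2, the other Jagged ligand, was lowest in vein cells, at 18.1 CPM (12.95–24.7) and 14.2 CPM (10.0–19.5), where general capillary cells had 36.0 CPM (34.0–38.2) and 30.5 CPM (28.6–32.6). Its artery, general capillary and aerocyte levels overlapped in the metastatic library. The 4 ligands therefore did not share an order: aerocytes were low in Dll1 and Jag1 but not in Dll4 or Jag2, and vein cells low in Dll4 and Jag2 but not in Dll1 or Jag1. For Jag1 and for Jag2, lymphoid cells had 1 UMI in the control library, with an upper bound of 24.1 CPM. In the metastatic library they had 0 UMIs, with an upper bound of 15.5 CPM. Control aerocyte Jag1 and both vein Jag2 levels lay under these bounds, so they were not above background.

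**Figure D1:**
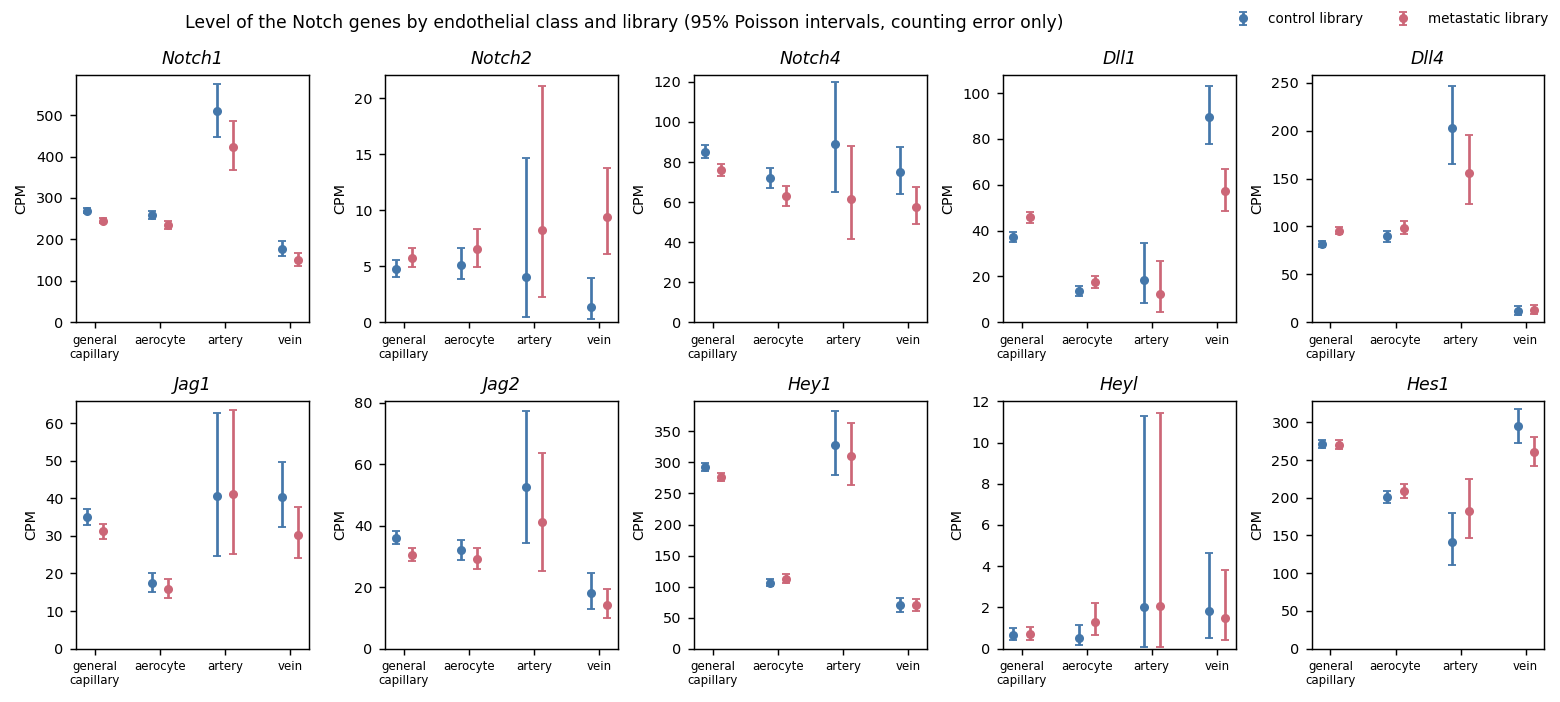
Level of each of the 10 genes in CPM (y axis, starting at 0 with its own scale per gene) in the 4 classes of the control (blue) and metastatic (red) library, with exact 95% Poisson intervals for counting error. Dll4 and Hey1 were lowest in vein cells, at 11.8 and 69.8 CPM in the control library, where Dll1 was highest, at 89.8 CPM.

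Of the receptors, Notch1, the main Notch receptor of endothelium, stood at 509 CPM (448–576) in control and 424 CPM (368–485) in metastatic artery cells. General capillary cells had 269 CPM (264–275) and 245 CPM (240–251), aerocytes 259 CPM (250–269) and 234 CPM (224–244), and vein cells 177 CPM (160–196) and 151 CPM (137–166). Artery was above and vein below both capillary classes in each library, and the ratio of aerocytes to general capillary cells had an interval that held 0 in both. Notch4, an endothelial receptor, varied less: its control levels ran from 72.1 CPM in aerocytes to 89.2 CPM in artery cells, and its metastatic levels from 57.6 CPM in vein to 75.9 CPM in general capillary cells. The artery value of Notch4 could not be told from that of general capillary cells in either library.

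Notch2, a receptor also used by blood cells, had few UMIs in endothelial cells: 4.77 CPM (4.04–5.58) and 5.74 CPM (4.92–6.66) in general capillary cells and 5.12 (3.89–6.62) and 6.499 (4.97–8.35) CPM in aerocytes. Lymphoid cells (2 or more of 8 lymphoid markers and under 2 endothelial markers; 44 and 46 barcodes) had 34.5 CPM (14.9–68.1) and 50.5 CPM (26.1–88.3) of Notch2, from 8 and 12 UMIs. In control vein cells it had 3 UMIs, and in metastatic vein cells 25 UMIs, or 1.36 and 9.34 CPM. The metastatic vein class is the one whose epithelial and myeloid marker levels were raised, and their part in the Notch2 value was not tested.

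Among the targets, Hey1 stood at 329 CPM (280–383) in control and 310 CPM (263–364) in metastatic artery cells, and at 292 CPM (287–298) and 276 CPM (270–282) in general capillary cells. The interval of the artery to general capillary ratio held 0 in both libraries. Aerocytes had 106 CPM (100–112) and 112 CPM (106–119), and vein cells 69.8 CPM (59.2–81.7) and 69.9 CPM (60.2–80.7). Hey1 was thus 2.75-fold lower in aerocytes than in general capillary cells in the control library and 2.46-fold lower in the metastatic library. The same ratio of aerocytes to general capillary cells was near 0 for Dll4, at log2 values of 0.13 and 0.05. In vein cells Hey1 was 4.19-fold and 3.95-fold lower than in general capillary cells.

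Hes1, a target that other pathways also switch on, did not follow Hey1. It stood at 295 CPM (272–318) and 261 CPM (242–281) in vein cells, 271 CPM (265–277) and 270 CPM (264–276) in general capillary cells, 201 CPM (193–209) and 209 CPM (200.0–219) in aerocytes, and 142 CPM (111–179) and 183 CPM (147–225) in artery cells. Vein and general capillary cells were highest in both libraries, and artery cells lowest, although in the metastatic library the artery interval overlapped that of aerocytes. Heyl had 21 UMIs in the general capillary cells of each library, 6 and 12 in aerocytes, 1 and 1 in artery and 4 and 4 in vein cells, too few to order the classes.

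For comparison across classes a member was counted where its log2 ratio to general capillary cells was at least 1 in size in the same direction in both libraries, among 9 members with at least 100 UMIs. In aerocytes 2 members were lower, Dll1 and Hey1, where 3.8% of 10490 genes were lower by the same rule, and 0 were higher, where 3.53% of genes were higher. In vein cells 2 members were lower, Dll4 and Hey1, against 2.59% of 10232 genes, and 0 were higher, against 2.7%. In artery cells 1 member was lower, Dll1, against 3.96% of 10102 genes, and 0 were higher, against 2.15%. Dll1 in artery cells (9 and 6 UMIs) and Dll4 in vein cells (26 and 34 UMIs) reached the minimum only through the UMIs of general capillary cells, where they were higher, so these counts are descriptions. Dll1 in aerocytes was not above background, and its fold rests on that level. Just outside the rule lay Jag1 in aerocytes, at log2 ratios of -1.01 in the control and -0.98 in the metastatic library, Jag2 in vein cells, at -0.99 and -1.10, and Dll4 in artery cells, at 1.31 and 0.71. Jag2 in vein cells (40 and 38 UMIs) also reached the minimum only through general capillary cells. Its vein levels and the control aerocyte level of Jag1 were not above background.

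**Figure D2:**
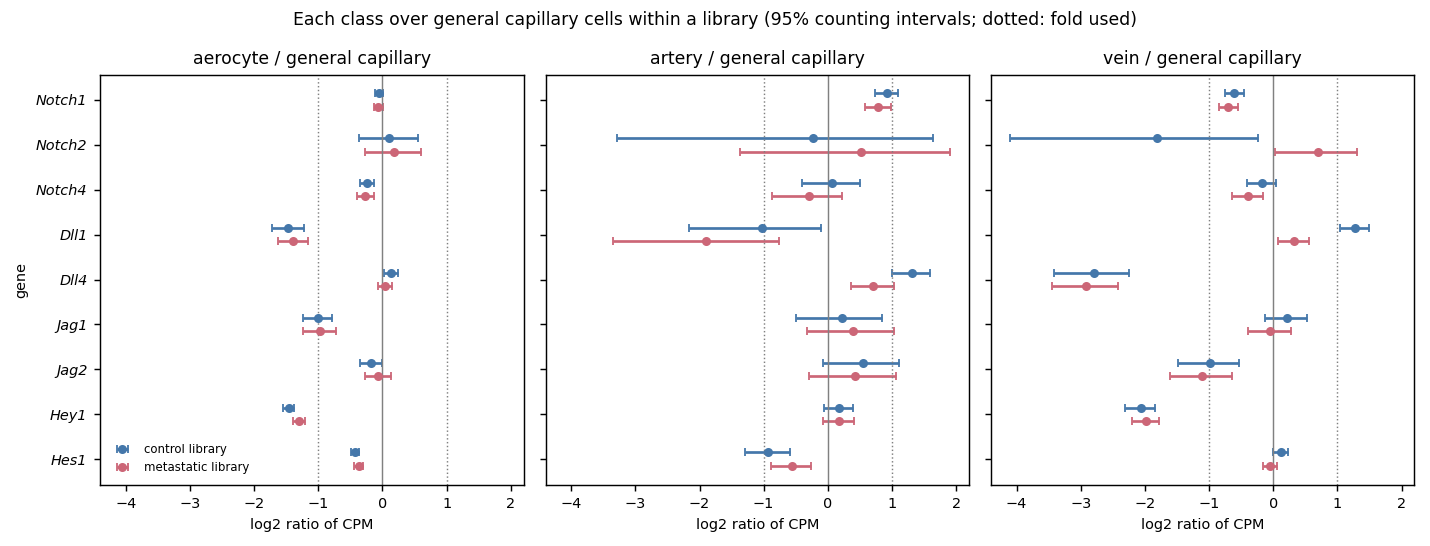
Log2 ratio of the level in aerocytes, artery and vein cells to that in general capillary cells (x axis) for 9 genes in the control (blue) and metastatic (red) library, with exact 95% intervals for counting error and dotted lines at a log2 ratio of 1 in size. The 2 libraries gave close values for aerocytes, and in vein cells Dll1 dropped from 1.27 in the control to 0.32 in the metastatic library while Dll4 stayed near -2.80 and -2.91. The vein levels of Dll4 and the aerocyte levels of Dll1 were not above background.

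The share of cells with a UMI was read for Dll4, Dll1 and Hey1 with every cell thinned to 2000 UMIs. Shallower cells were left out, 73 control and 58 metastatic general capillary cells, 10 and 12 aerocytes, 0 and 0 artery and 1 and 1 vein cells. Among general capillary cells Dll4 was found in 13.3% (12.4–14.3) of 4947 control and 16.3% (15.2–17.4) of 4461 metastatic cells. In vein cells it was found in 3 of 246 (1.22%) and 7 of 303 (2.31%) cells, and in artery cells in 23 of 63 (36.5%) and 14 of 59 (23.7%). Lymphoid cells, which should lack it, had it in 0 of 44 and 1 of 45 cells, where 0 of 44 allows a share of up to 6.82%, taken as 3 counts of 44. The vein shares lie under this limit, so Dll4 was not detectable above background there. Dll1 was found in 6.77% (6.09–7.51) and 7.44% (6.69–8.25) of general capillary cells, with intervals that overlapped, and in 0 of 44 and 0 of 45 lymphoid cells. The control share of Dll1 also lies under the limit that so few lymphoid cells allow, so the share alone does not place it above background. Summed over the class, its 37.3 CPM lies above the 15.9 CPM that the lymphoid cells allow. Hey1 was found in 40.4% and 38.5% of general capillary cells and in 12.6% and 12.9% of vein cells, against 0 of 44 and 0 of 45 lymphoid cells. The median depth before thinning was 5950.5 and 6275 UMIs in general capillary cells and 4743.5 and 4600.5 in lymphoid cells. Unthinned, Dll4 was found in 34.4% and 39.3% of general capillary cells and Hey1 in 70.7% and 68.3%.

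Between the metastatic and the control library, a member was counted where the log2 ratio was at least 0.25 in size, with at least 100 UMIs over both. In general capillary cells 9 members had enough UMIs, 2 were higher by this rule, Dll1 and Notch2, where 14.6% of 11220 genes were higher, and 0 were lower, where 8.48% of genes were lower. Dll1 went from 37.3 to 45.8 CPM, a log2 ratio of 0.30 (0.18–0.41). With 3 class markers needed it was 0.246, under the fold. Dll4 went from 81.8 to 95.7 CPM, 0.23 (0.15–0.30), just under the fold. These 2 Delta ligands had intervals above 0, and the Jagged ligands had intervals below 0: Jag1 went from 35.0 to 31.2 CPM, a log2 ratio of -0.16 (-0.29 to -0.04), and Jag2 from 36.0 to 30.5 CPM, -0.24 (-0.37 to -0.11). The Notch2 ratio of 0.27 (-0.05 to 0.59) had an interval that held 0, and it was -0.07 when free RNA was subtracted. Markers of other cells differed between the libraries in this class: red cell markers summed to 1435 CPM in control and 595 CPM in metastatic cells, epithelial markers to 1685 and 992 CPM and platelet markers to 175 and 271 CPM. Without cells that carried 2 or more markers of another type Dll1 was at 0.32 and Dll4 at 0.31.

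The receptors Notch1 and Notch4 were slightly lower in metastatic general capillary cells, at log2 ratios of -0.14 (-0.18 to -0.09) and -0.16 (-0.24 to -0.08). Of the targets, Hey1 was at -0.08 (-0.12 to -0.04) and Hes1 at 0.00 (-0.05 to 0.04). All 4 values lay inside the fold. In general capillary cells with no marker of another class, Notch4 was at -0.28, past it. The median ratio of the 9 members was -0.08, against 0.02 for all genes, of which the central 95% lay between -0.51 and 0.66.

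In aerocytes 2 of 9 members were higher in the metastatic library, Dll1 and Notch2, against 13.8% of 9504 genes, and 0 were lower, against 8.3%. Dll1 went from 13.4 to 17.5 CPM, a log2 ratio of 0.38 (0.05–0.71). Both Dll1 levels lie under the lymphoid bounds given above, so this ratio rests on levels not above background. Notch2 was at 0.34 (-0.20 to 0.89), with an interval that held 0. When free RNA was subtracted the Notch2 ratio was 0.07, inside the fold. Dll4 was at 0.14 (0.01–0.27), Notch1 at -0.15 (-0.23 to -0.07) and Notch4 at -0.20 (-0.35 to -0.04). These signs matched those of general capillary cells, while the targets Hey1, at 0.08, and Hes1, at 0.06, had intervals that held 0. Epithelial markers summed to 631 CPM in control and 91.0 CPM in metastatic aerocytes, and platelet markers to 76.5 and 157 CPM. Without cells that carried markers of another type Dll1 was at 0.70. The median of the 9 members was 0.06, against 0.03 for all genes.

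In vein cells 3 of 6 members with enough UMIs were lower in the metastatic library, Dll1, Notch4 and Jag1, where 15.7% of 6260 genes were lower, and 0 were higher, where 16.6% were higher. Dll1 went from 89.8 to 57.2 CPM, a log2 ratio of -0.65 (-0.96 to -0.34), and its 2 levels did not overlap. Notch4 was at -0.39 (-0.71 to -0.06) and Jag1 at -0.41 (-0.87 to 0.04), the latter with an interval that held 0. Notch1 was at -0.23 (-0.44 to -0.03) and Hes1 at -0.18 (-0.33 to -0.02), inside the fold with intervals below 0, and Hey1 at 0.00 (-0.31 to 0.32). The median of the 6 members was -0.31, against 0.01 for all genes. Since the metastatic vein class held more epithelial and myeloid marker UMIs, the ratios were also taken without cells that carried 2 or more markers of another type, which left 140 control and 196 metastatic vein cells: Dll1 was then at -0.51, Notch4 at -0.36, Jag1 at -0.77 and Hes1 at 0.09.

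In artery cells 4 members had enough UMIs. Notch1, at a log2 ratio of -0.27 (-0.54 to 0.01), and Dll4, at -0.38 (-0.83 to 0.07), were lower past the fold, where 17.8% of 1827 genes were lower, and Hes1, at 0.37 (-0.10 to 0.84), was higher, where 21.6% were higher. All 3 intervals held 0, and with 63 and 59 cells no difference was detectable at this depth. Lymphatic markers were higher in the metastatic and mural markers in the control artery cells, and their part in these ratios was not tested. Without cells that carried markers of another type, 30 and 41 cells, Notch1 was at -0.41 and Dll4 at -0.55, and 0 members with enough UMIs were higher past the fold.

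**Figure D3:**
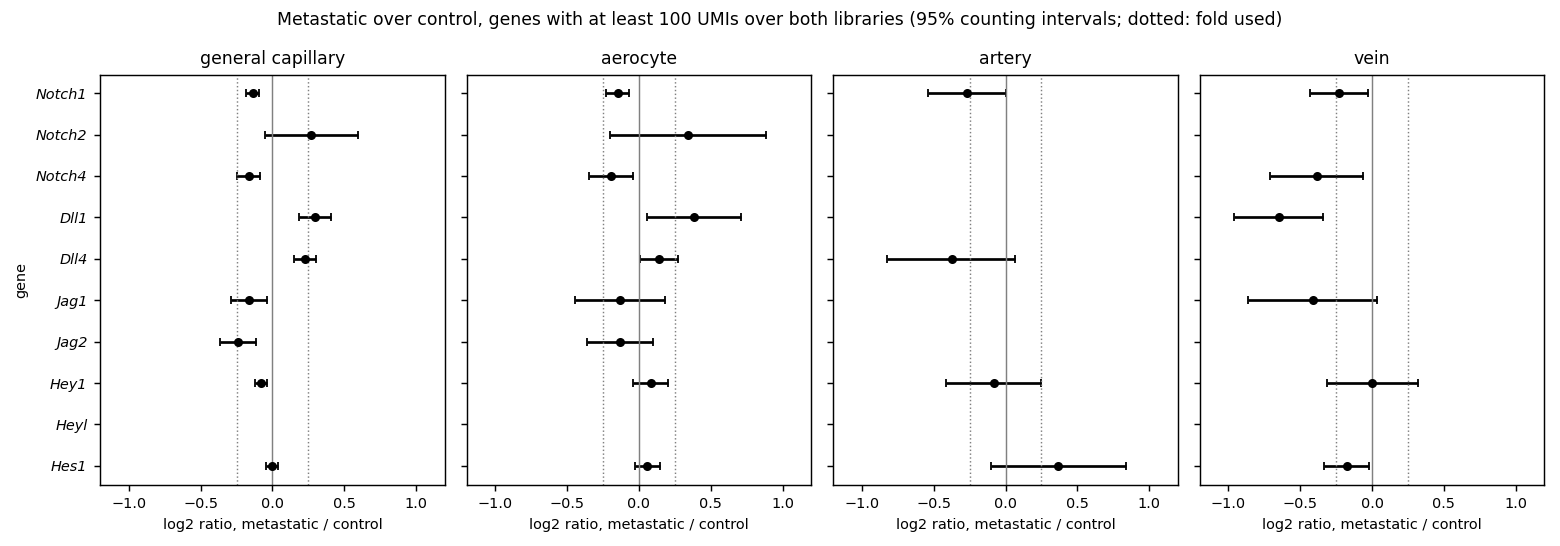
Log2 ratio of the metastatic to the control level (x axis) for members with at least 100 UMIs over both libraries, in each of the 4 classes, with exact 95% intervals for counting error and dotted lines at 0.25 in size. Dll1 lies above 0 in general capillary cells (0.30) and aerocytes (0.38) and below 0 in vein cells (-0.65). The aerocyte levels of Dll1 were not above background.

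The study describes a reactive state of general capillary cells. Cells with 3 or more of 7 of its genes (Pim3, Bcl3, Inhbb, Osmr, Tmem252, Adamts9 and Scarb1) after thinning to 2000 UMIs were taken as reactive here. The study chose these genes on data that include these libraries, and no Notch gene is among them. By this gate 329 of the control (6.65%) and 479 of the metastatic (10.7%) general capillary cells were reactive.

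Dll1 was higher in reactive cells in both libraries. It stood at 59.6 CPM (49.8–70.7) in reactive and 35.6 CPM in the other general capillary cells of the control library, a log2 ratio of 0.74 (0.47–1.01), and at 88.1 CPM (78.5–98.5) and 40.4 CPM in the metastatic library, 1.13 (0.94–1.31). Dll4 showed this in the metastatic library, at 117 CPM (106–129) against 92.7 CPM, a log2 ratio of 0.34 (0.19–0.49), and was at 83.2 and 81.8 CPM, 0.02 (-0.20 to 0.24), in the control. Hes1 was at 0.09 (-0.03 to 0.20) in the control and 0.27 (0.18–0.36) in the metastatic library, and Hey1 at -0.09 (-0.21 to 0.03) and -0.47 (-0.58 to -0.36). The 2 targets thus differed in sign in metastatic reactive cells, with intervals on opposite sides of 0. The Jagged ligands were lower there, Jag1 at -0.51 (-0.86 to -0.18) and Jag2 at -0.38 (-0.72 to -0.06), where the control ratios of 0.21 and -0.31 had intervals that held 0. Whether the reactive difference itself changed between the libraries was not tested. Reactive cells had medians of 6288 and 6767 UMIs and the others 5968 and 6252.

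**Figure D4:**
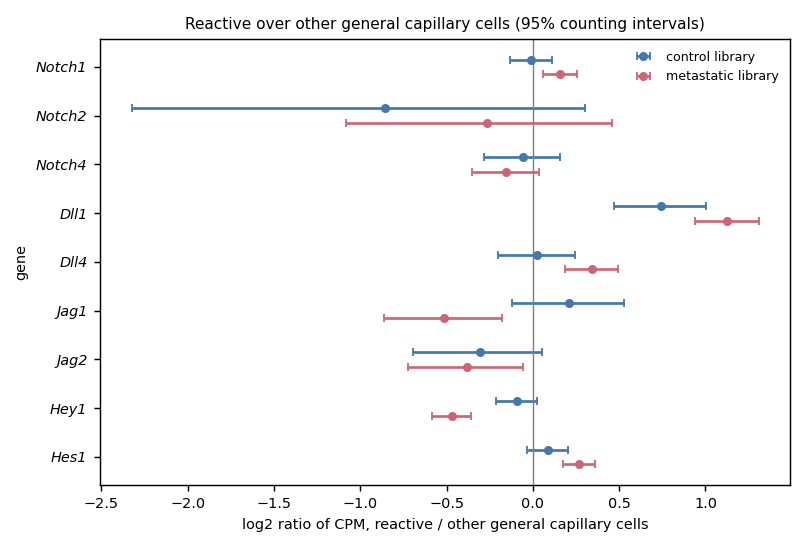
Log2 ratio of the level in reactive to that in other general capillary cells (x axis) for 9 genes in the control (blue) and metastatic (red) library, with exact 95% intervals for counting error. Dll1 lies above 0 in both libraries (0.74 and 1.13), and Hey1 below 0 in the metastatic library (-0.47).

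Ligand and target RNA were also read in the same cells. Of control general capillary cells with a Dll4 UMI after thinning, 51.8% (47.9–55.7) had a Hey1 UMI, against 38.7% (37.2–40.2) of those without one. In the metastatic library the shares were 44.9% (41.3–48.6) and 37.2% (35.7–38.8). Notch1 was likewise found more often with Dll4, in 44.7% (40.9–48.6) against 37.5% (36.0–38.9) of control and 41.6% (38.0–45.3) against 34.2% (32.7–35.7) of metastatic cells. Hes1 was found in 33.2% against 35.3% and in 35.3% against 32.1%, with intervals that overlapped in both libraries.

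Within the general capillary class, levels differed between cells that carried a single artery marker and cells that carried a single vein marker. General capillary cells with 1 detected artery marker (287 and 238 cells) had 128 CPM (112–145) and 150 CPM (132–169) of Dll4, those with 1 vein marker (177 and 171 cells) 38.9 CPM (29.2–50.8) and 59.8 CPM (47.7–74.0), and those with none of the 9 markers of the other classes 80.9 and 96.6 CPM. Hey1 followed, at 347 and 362 CPM with an artery marker, 183 and 182 CPM with a vein marker and 297 and 281 CPM with none. Notch1 was at 346 and 293 CPM, 180 and 179 CPM, and 269 and 247 CPM in the same order. Cells with 1 aerocyte marker (1158 and 895 cells) had 81.8 and 84.4 CPM of Dll4, 291 and 272 CPM of Hey1 and 263 and 240 CPM of Notch1. Their intervals overlapped those of cells with none of the markers, except for Dll4 in the metastatic library (77.4–91.9 against 92.3–101). For the artery and vein markers the contrast was wider. The artery and vein ends did not overlap for any of these 3 genes in either library. Dll1 was at 36.7 and 28.3 CPM with an artery marker and 39.7 and 49.1 CPM with a vein marker, with overlapping intervals in the control library.

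The rest of the pathway was read from 6 lists set by role, 52 genes in all, of which 44 had enough UMIs in general capillary cells. Of these, 3 were higher past the fold in the metastatic library and 3 lower, against the 14.6% and 8.48% of all genes, with a median log2 ratio of 0.02, as over all genes. The higher genes were Neurl3, an E3 ubiquitin ligase of the Neuralized family, from 22.8 to 46.6 CPM, a log2 ratio of 1.03 (0.90–1.17), the gap junction gene Gja4, from 124 to 210 CPM, 0.76 (0.71–0.82), and the repressor gene Hey2, from 64 to 85 UMIs, 0.49 (0.01–0.98). The lower genes were Neurl1b, of the same ligase family as Neurl3, at -0.40 (-0.65 to -0.15), Psen2, a catalytic subunit of γ-secretase, at -0.39 (-0.50 to -0.28), and the corepressor gene Tle1, at -0.31 (-0.35 to -0.27).

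By list, proteolysis had 0 higher and 1 lower of 9 genes, glycosylation 0 and 0 of 5, ligand endocytosis 1 and 1 of 6, the nuclear complex and corepressors 0 and 1 of 11, inhibitors and turnover 0 and 0 of 8, and the other ligands, receptors and targets 2 and 0 of 5. The list medians ran from -0.03 for the nuclear complex to 0.13 for ligand endocytosis. Rbpj itself was at 0.03 (-0.05 to 0.12), and the 3 fringe genes that modify Notch receptors were at -0.18 (Lfng), 0.17 (Mfng) and 0.00 (Rfng).

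**Figure D5:**
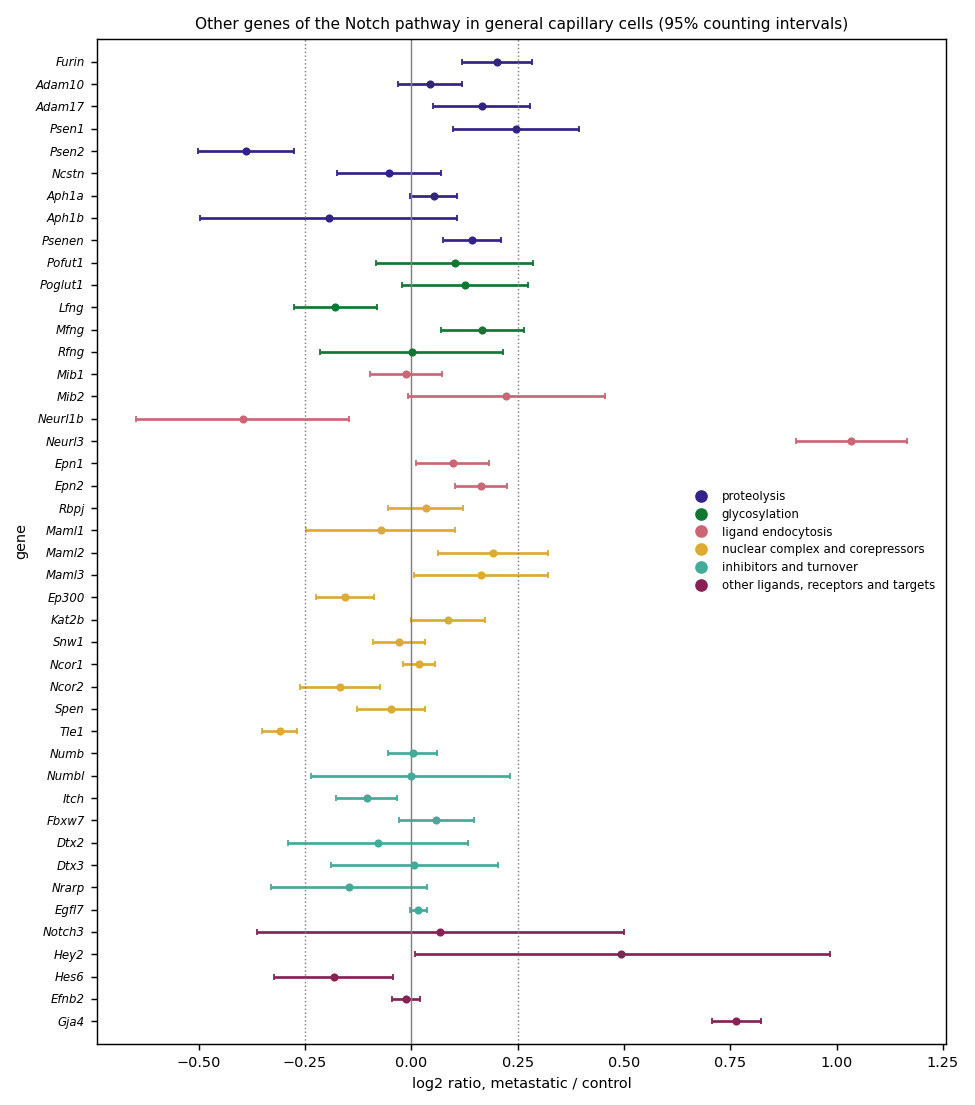
Log2 ratio of the metastatic to the control level (x axis) in general capillary cells for 44 other genes of the Notch pathway, coloured by list, with exact 95% intervals for counting error and dotted lines at 0.25 in size. Most genes lie between the dotted lines, and Neurl3 (1.03) and Gja4 (0.76) stand to the right of them.

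The genes whose levels were most like those of a member were ranked by Pearson correlation of log2(CPM + 1) over 8 values, the 4 classes in 2 libraries, among 7744 genes. These values share libraries and depth and the artery values rest on few cells, so the correlations are descriptions. Dll4 was followed by Stag1 (0.99), Kansl3 (0.99) and Spen (0.98), Dll1 by Fhl1, Mrrf and Ephb4 (0.98, 0.98 and 0.97), and Hey1 by Ldb2, Prdm16 and Map4, each at 0.99. Ephb4, a venous receptor gene, ranged from 50.6 to 151 CPM over these values. Notch1 was followed by Syne1 (0.997), Gstp1 (0.99) and Zfp568 (0.98), Notch2 by Capn1, Arl3 and Dnajc14 (0.93 to 0.97), and Notch4 by Cep57, Rbmx and Gm37494 (0.93 to 0.96). Jag1 was followed by Lifr, Foxo1 and Nhsl2 (0.98 to 0.99), Jag2 by Ace and Cdc42bpa (each at 0.99), Hes1 by Micall1, Bcl2l12 and Tbc1d2b (0.97 to 0.99) and Heyl by Procr, Bola2 and Me1 (0.94 to 0.96). Heyl had too few UMIs to order the classes, so no likeness can be read from its ranking. Notch2 likewise had few UMIs in artery and control vein cells.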

How the data were processed

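Lung cells sorted for PECAM1 were measured by 10x Genomics single-cell RNA sequencing in 1 control and 1 metastatic library. The deposited values are raw UMI counts per gene and barcode: the authors made them with Cell Ranger (3.1.0 per the file headers) against mm10. The matrices hold all barcodes, with no cell calling or normalization, and 67929614 and 64733724 UMIs, which sets the counting intervals. The genes and lists were chosen with earlier results of these data known. The study's filter on mitochondrial UMIs (under 20%) removed 2 and 0 barcodes, and its minimum of 300 genes was an alternative. Doublets were kept, and as an alternative 407 and 334 barcodes that scored highest against simulated doublets were left out. Counts were summed per library and class with numpy 2.4.6 and pandas 2.3.3, and intervals computed with scipy 1.17.1, checked on simulated data. Thinning used 1 random draw per cell. TMM factors came from edgeR 4.0.16 in R 4.3.3, with no count model fitted. Free RNA was subtracted, as an alternative, as 10% of a class's UMIs with the profile of barcodes with 11 to 50 UMIs. Named genes were the 10 members, pathway genes past the fold in general capillary cells and, for each member, the 3 genes most like it with at least 20 CPM in 1 of the 8 values, of which 1 is not reported here. Rbpj, the 3 fringe genes and Ephb4 were singled out after their values were seen.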

Additional observations from a re-analysis of the deposited data

Results flagged for a closer look

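Dll1 differed in direction between classes. In the metastatic over the control library its log2 ratio was 0.30 in general capillary cells and 0.38 in aerocytes, but -0.65 in vein cells, each with a counting interval on 1 side of 0. It stood out because these values had opposite signs. In aerocytes Dll1 was not above background, so the contrast rests on general capillary and vein cells. With 1 library per group the difference between the classes was not tested. The vein value was -0.51 without cells that carried markers of another cell type.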

How the results depend on the processing

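No paired analysis was possible because each group held 1 library, and for the same reason no library could be left out. Of 308 recomputed metastatic to control ratios, 300 stayed inside their counting interval, 5 moved outside it and 3 changed sign after being past the fold. Of 535 recomputed class ratios these numbers were 502, 32 and 1. The values past the fold that changed sign were Notch2 in general capillary cells with free RNA subtracted (-0.066), and, with 3 class markers needed, Dll4 (1.00) and Hes1 (-1.87) in the 12 and 7 artery cells left and Notch2 in control vein over general capillary cells (0.13). With values inside the fold included, 9 of 28 metastatic to control ratios and 10 of 54 class ratios changed sign in 1 or more alternatives, among them Hes1 in vein cells (from -0.18 to 0.09 without cells carrying markers of another type) and Notch2 in metastatic vein over general capillary cells (from 0.70 to -0.26 with 3 class markers). Over the alternatives the metastatic to control log2 ratio of Dll1 ranged from 0.246 to 0.37 in general capillary cells, with the lowest value, at 3 class markers, under the fold while Dll4 (0.26) passed it, from 0.34 to 0.70 in aerocytes and from -0.67 to -0.51 in vein cells, and that of Dll4 in general capillary cells from 0.20 to 0.31. TMM scaling moved the median of all genes by under 0.1 in each class.

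Counts of members past the fold between libraries that moved by over 1.5 times are listed next. The share of all genes past the same fold was not computed for these alternatives. The counts therefore show how the numbers depend on the setting, and cannot be read as a result about the members. With cells carrying markers of another type left out (3612 control and 2422 metastatic barcodes), general capillary cells had 2 lower, aerocytes 1 higher and 1 lower, and artery cells 0 higher. With 3 class markers, general capillary cells had 1 lower, aerocytes 1 higher and 1 lower, and artery cells 0 and 0. With no marker of another class in general capillary cells 1 was lower there, Notch4, and with cells weighted equally 1 was higher. With free RNA subtracted, general capillary cells had 1 higher and 1 lower and aerocytes 1 higher. With TMM scaling, general capillary cells had 1 higher and 1 lower. At a minimum of 30 UMIs artery cells had 4 lower. At 1 UMI in each library artery cells had 2 higher and 5 lower and vein cells 1 higher and 5 lower. At a log2 ratio of 0.5, general capillary cells, aerocytes and artery cells had 0 higher, artery cells 0 lower and vein cells 1 lower. Between classes, artery cells had 3 lower with 3 class markers, and at a log2 ratio of 0.5, 2 higher and 2 lower, with 4 lower in vein cells. The causes were not tested. Depth limits artery cells most, with 493087 and 486399 UMIs in all.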

Other observations

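Outside the 4 classes, 394 control and 466 metastatic cells fell into no class. In these, Heyl had 0 UMIs in the control and 15 UMIs in the metastatic library, and 7 of the 15 lay in 15 metastatic cells with 2 or more mural or fibroblast markers. The rest lay in cells that met none of the marker lists of other cell types. In the control library 13 cells had 2 or more mural or fibroblast markers, with 0 Heyl UMIs. Heyl is a target gene known from vascular mural cells. In the same cells Dll1 had 22 and 65 UMIs, or 10.4 CPM (6.51–15.7) and 26.3 CPM (20.3–33.5), and Dll4 45 and 86 UMIs, or 21.2 and 34.7 CPM. Hey1 was lower in the metastatic library there, from 72.7 to 46.5 CPM, a log2 ratio of -0.65 (-1.01 to -0.29). These cells are of mixed type, and the makeup of the 2 sets was not matched.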
